A study of Mus musculus with 20 samples.

Results

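*Otop1*, *Nox3*, *Noxo1* and *Cyba*, the genes of otopetrin 1 and of the Nox3 oxidase, were followed in RNA of the mouse utricle. They are 4 of the 25655 genes of the count table, chosen by name for their part in forming otoconia, though with earlier results of these data known. Each of the 4 had counts in these libraries, but only *Cyba* was detected in every one, and none differed between sham-operated, ovariectomized, estradiol-treated and raloxifene-treated mice in any test.

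The utricle was dissected from female C57BL/6J mice that were ovariectomized (OVX) or sham-operated at 8 weeks of age. The sham + v group kept its ovaries and received a vehicle pellet under the skin, and the OVX + v group lost its ovaries and received the same kind of pellet. The OVX + E2 group was ovariectomized and was given estradiol by a slow-release pellet (50 µg in 60 days). The OVX + RAL group was ovariectomized and was given raloxifene in the same way (2.4 mg in 60 days); raloxifene is a selective estrogen receptor modulator. The study asked how ovariectomy and the 2 agents act on the otoconial layer, with OVX + v as the common control. Each group has 5 libraries, named here by the library numbers 1 to 20 of the labels: 1 to 5 are sham + v, 6 to 10 OVX + v, 11 to 15 OVX + E2 and 16 to 20 OVX + RAL. All animals were adult, so the data hold no embryonic stage, when otoconia are first laid down.

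Otoconia are the calcium carbonate crystals that lie over the hair cells of the utricle and saccule and give them their response to gravity and linear acceleration. *Otop1* encodes otopetrin 1, a proton channel of the plasma membrane, and the tilted and mergulhador mice, which carry mutations in it, lack otoconia. *Nox3* encodes the catalytic subunit of an inner ear NADPH oxidase that makes superoxide, *Noxo1* encodes the organizer protein that switches the enzyme on, and *Cyba* encodes p22phox, the membrane partner that Nox3 shares with several other oxidases. Mutations in *Nox3* (head tilt), *Noxo1* (head slant) and *Cyba* (nmf333) also leave mice without otoconia and with impaired balance. These roles are background and were not measured here.

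Each library started from 1 ng of RNA, and the kit reads the 3′ end of each polyadenylated transcript, so a count is 1 tag near the end of the RNA and needs no division by transcript length. Levels are given as CPM, counts divided by the total count of the library and scaled by the same constant in all. The libraries held 1123053 to 2081747 counts and 7427 to 10694 genes with a count, and the OVX + E2 libraries were the smallest, with a median of 1324047 counts against 1605308 in OVX + v, 1788489 in sham + v and 1906110 in OVX + RAL. A gene was called detected in a library at 3 counts or more, which is 1.44 CPM in the largest library and 2.67 CPM in the smallest. The markers of the tissue were present: the summed level of 9 hair cell markers lay between 415 and 1514 CPM, and that of 8 supporting and non-sensory epithelium markers between 601 and 1582 CPM.

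Over the 20 libraries the mean level was highest for *Cyba*, at 101 ± 50.3 CPM (SD, n = 20). *Noxo1* followed with 29.0 ± 28.7 CPM, *Nox3* with 21.7 ± 32.3 CPM and *Otop1* with 12.4 ± 21.1 CPM. The last 3 lie within each other's spread, and their order was not tested. *Cyba* was detected in 20 of 20 libraries, *Noxo1* in 17, *Nox3* in 11 and *Otop1* in 10. A median of 10 of 20 libraries was also found over the 6699 genes with a mean of 5 to 50 counts per library, with quartiles of 7 and 14 libraries. *Otop1*, with a mean of 20.45 counts, and *Nox3*, with 36.6, lay near that median. *Noxo1* lay above the upper quartile, but its mean of 49.55 counts is at the top of the band. The genes of the band were not matched for level, so none of the 3 is read as typical or unusual.

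**Figure D1:**
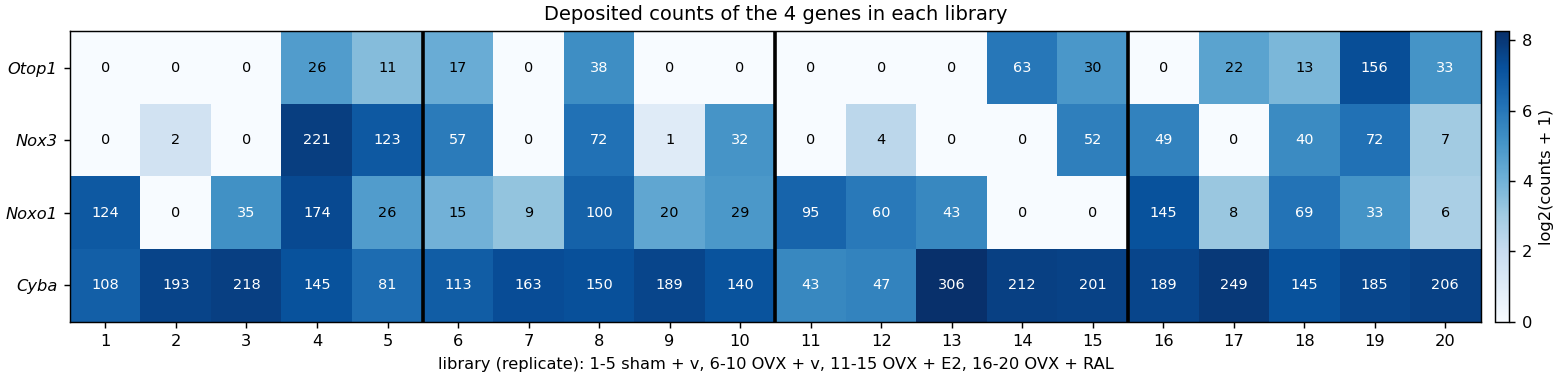
Deposited counts (numbers and blue shade, log2 of count + 1) of the 4 genes (rows) in the 20 libraries (columns), with black lines between the groups. *Cyba* holds 43 to 306 counts in every library, while *Otop1* is at 0 in 10 libraries and holds 11 counts or more in the other 10.

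Counts of *Otop1* came all at once or not at all. It held 409 counts in all, was at 0 in 10 libraries and had no library with 1 to 10 counts. A single OVX + RAL library, 19, held 38.1% of them. The counts of *Otop1* varied between libraries with a coefficient of variation of 178%. The coefficient of variation was 152% for *Nox3*, 105% for *Noxo1* and 39.7% for *Cyba*. The source of this spread was not tested.

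The proton channel gene *Otop1* was at 0 in sham + v libraries 1, 2 and 3 and at 14.5 and 7.30 CPM in libraries 4 and 5. In the OVX + v group it was at 10.6 and 21.5 CPM in libraries 6 and 8 and at 0 in libraries 7, 9 and 10. Both groups thus had 2 libraries with *Otop1* and 3 without. In the OVX + E2 group libraries 11, 12 and 13 were at 0, and 14 and 15 at 56.1 and 21.0 CPM. The OVX + RAL libraries 16 to 20 held 0, 11.8, 7.64, 81.8 and 15.9 CPM. Every group therefore had libraries with and without *Otop1*, with 2 detected in sham + v, OVX + v and OVX + E2 and 4 in OVX + RAL, and all groups overlapped.

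The mean of *Otop1* was 23.4 ± 33.2 CPM in OVX + RAL, 15.4 ± 24.5 CPM in OVX + E2, 6.43 ± 9.61 CPM in OVX + v and 4.37 ± 6.50 CPM in sham + v (SD, n = 5). In each group the SD exceeded the mean. Against OVX + v, the log2 fold change in edgeR was 1.85 ± 1.80 (SE) for OVX + RAL, with a 95% interval of -1.68 to 5.39. Without library 19 it was 0.45. The log2 fold change was 1.25 ± 2.42 for OVX + E2 (-3.49 to 5.99) and -0.55 ± 2.75 for sham + v (-5.94 to 4.84). The first was -0.28 without library 14, and the second 0.71 without library 8. None passed the test. The other two mammalian otopetrin genes, *Otop2* and *Otop3*, had 0 counts in all 20 libraries.

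The catalytic subunit was as uneven. *Nox3* held 0, 1.05, 0, 124 and 81.6 CPM in sham + v libraries 1 to 5. In OVX + v libraries 6 to 10 it held 35.5, 0, 40.8, 0.495 and 22.3 CPM. In OVX + E2 libraries 11 to 15 it held 0, 3.02, 0, 0 and 36.5 CPM, so that only library 15 lay above the levels of a few counts. The OVX + RAL libraries 16 to 20 held 25.2, 0, 23.5, 37.8 and 3.36 CPM. The sham + v group thus held both the highest values of all 20 libraries, in libraries 4 and 5, and 2 libraries at 0, and no group lay apart from another.

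The mean of *Nox3* was 41.2 ± 57.9 CPM in sham + v, 19.8 ± 19.1 CPM in OVX + v, 17.97 ± 15.90 CPM in OVX + RAL and 7.899 ± 16.03 CPM in OVX + E2 (SD, n = 5). The log2 fold change against OVX + v was 1.05 ± 1.26 for sham + v (95% interval -1.41 to 3.52), -1.32 ± 2.21 for OVX + E2 (-5.65 to 3.02) and -0.14 ± 1.50 for OVX + RAL (-3.09 to 2.81), and none passed the test. The value for OVX + E2 was -4.57 without library 15, and that for sham + v 0.057 without library 4. The value for sham + v turned on the scale: the mean of log2(CPM + 1), in which the libraries at 0 weigh more, was lower in sham + v than in OVX + v by a difference of -0.27 (exact permutation test, two-sided, p = 0.976). The same holds for OVX + RAL, where this difference was 0.21 (exact p = 0.881).

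The organizer was seen more often. *Noxo1* held 60.4, 0, 20.7, 97.3 and 17.2 CPM in sham + v libraries 1 to 5. In OVX + v libraries 6 to 10 it held 9.34, 5.65, 56.7, 9.91 and 20.2 CPM, the only group besides OVX + RAL with *Noxo1* detected in every library. OVX + E2 libraries 11 to 15 held 63.0, 45.3, 34.5, 0 and 0 CPM. The OVX + RAL libraries 16 to 20 held 74.6, 4.31, 40.5, 17.3 and 2.88 CPM. High and low values stood in every group, and the groups overlapped.

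The mean of *Noxo1* was 39.13 ± 39.32 CPM in sham + v, 28.56 ± 27.99 CPM in OVX + E2, 27.9 ± 30.1 CPM in OVX + RAL and 20.4 ± 21.0 CPM in OVX + v (SD, n = 5). The log2 fold change against OVX + v was 0.94 ± 1.27 for sham + v (95% interval -1.56 to 3.44), 0.49 ± 1.67 for OVX + E2 (-2.80 to 3.77) and 0.45 ± 1.27 for OVX + RAL (-2.04 to 2.95), and none passed the test. The value for sham + v was 0.27 without library 4. That for OVX + E2 was -0.029 without library 11, and that for OVX + RAL -0.32 without library 16. For OVX + E2 the difference of mean log2(CPM + 1) had the other sign, -0.62 (exact permutation test, two-sided, p = 0.651).

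*Cyba* gave the steadiest values. It held 52.6, 101, 129, 81.1 and 53.7 CPM in sham + v libraries 1 to 5 and 70.4, 102, 85.0, 93.6 and 97.6 CPM in OVX + v libraries 6 to 10. The OVX + RAL libraries 16 to 20 held 97.2, 134, 85.2, 97.1 and 99.0 CPM. These 3 groups shared a range of 52.6 to 134 CPM. The OVX + E2 libraries 11 to 15 held 28.5, 35.5, 245, 189 and 141 CPM. The OVX + E2 values fell on both sides of the other groups: libraries 11 and 12 lay below every other library of the series, and libraries 13, 14 and 15 above every one.

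The mean of *Cyba* was 83.6 ± 32.6 CPM in sham + v, 89.8 ± 12.5 CPM in OVX + v, 127.8 ± 94.96 CPM in OVX + E2 and 103 ± 18.5 CPM in OVX + RAL (SD, n = 5). The coefficient of variation was 74.3% in OVX + E2, against 39.0% in sham + v, 18.1% in OVX + RAL and 13.97% in OVX + v. This spread in OVX + E2 was noticed in the values, and a difference in spread was not tested. The log2 fold change against OVX + v was -0.10 ± 0.597 for sham + v, 0.51 ± 0.633 for OVX + E2 and 0.19 ± 0.492 for OVX + RAL, and none passed the test. The value for OVX + E2 was 0.13 without library 13 and 0.055 with limma on log2(CPM + 1). That for sham + v was 0.025 without library 1. The intervals of *Cyba* were the narrowest of the 4 genes. As a fold against OVX + v they ran from 0.413 to 2.097 for sham + v and from 0.602 to 3.36 for OVX + E2. For OVX + RAL the interval ran from 0.583 to 2.23. The fit takes their width mostly from genes of like level. The split of the *Cyba* values in OVX + E2 is not in it, so no size of change is called excluded.

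**Figure D2:**
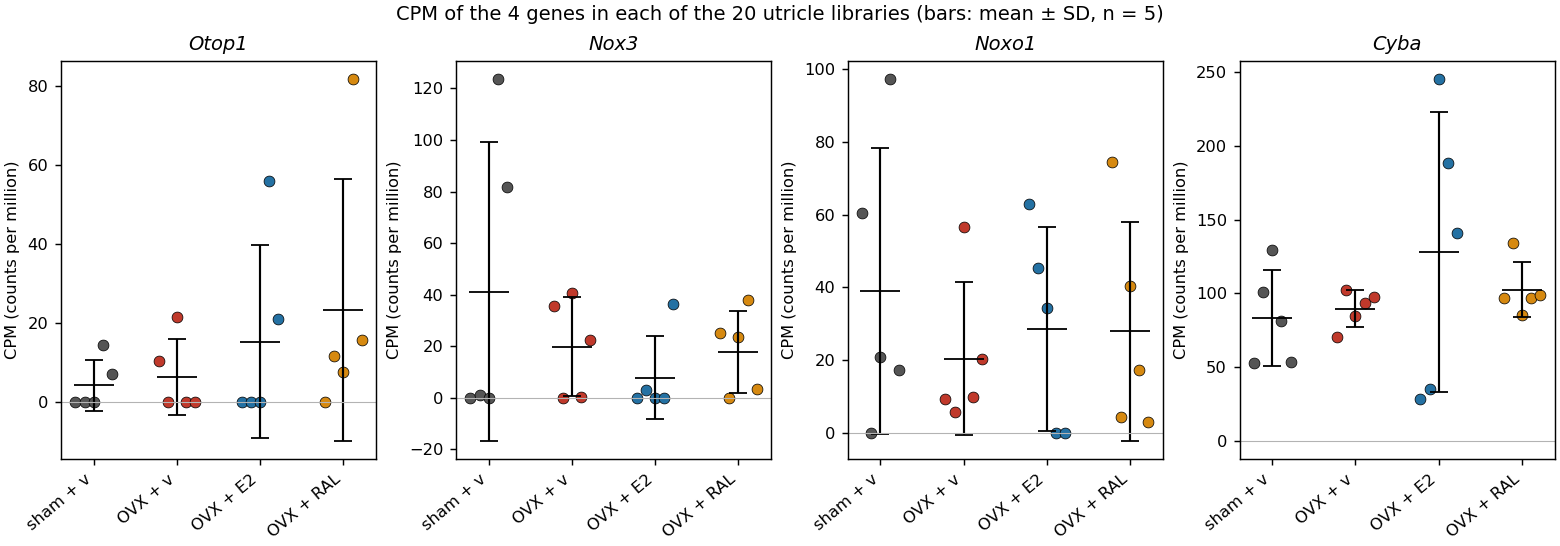
CPM of *Otop1*, *Nox3*, *Noxo1* and *Cyba* (vertical axes, linear and scaled for each gene) in each library (points) by group, with the mean ± SD of 5 libraries as black bars. The groups overlap in every panel, and the OVX + E2 points of *Cyba* split into 28.5 and 35.5 CPM against 141 to 245 CPM.

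None of the 4 genes passed the threshold of an adjusted p of 0.05 in any comparison. In the comparison of sham + v with OVX + v the adjusted p in edgeR was 0.999795 for each of the 4, and 0.0145% of the 13825 genes tested were called. It was 0.999691 for each in OVX + E2 against OVX + v, with 0.0584% of 13695 genes called. It was 0.999938 for each in OVX + RAL against OVX + v, with 0.0286% of 14002 genes called. Counts of 0 among 4 genes are what these shares leave room for, and they say little about the genes themselves. These 3 comparisons use the same 5 OVX + v libraries.

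The 2 agents were compared directly, in libraries of the same tissue but with pellets of different dose. The log2 fold change in OVX + E2 against OVX + RAL was -0.60 ± 1.87 for *Otop1*, -1.18 ± 2.26 for *Nox3*, 0.03 ± 1.52 for *Noxo1* and 0.32 ± 0.617 for *Cyba*. These directions are not firm: *Noxo1* was at -0.17 with TMM factors and *Cyba* at -0.13 with limma, and *Otop1* was at 0.80 without library 19. *Nox3* was at -4.43 without library 15. The 95% interval was -4.26 to 3.06 for *Otop1*, -5.60 to 3.25 for *Nox3*, -2.94 to 3.01 for *Noxo1* and -0.89 to 1.53 for *Cyba*. The adjusted p in edgeR was 0.999958 for each, with 0.0727% of 13753 genes called. The intervals of the first 3 genes leave room for large differences in either direction, so that the agents are not shown to act alike on them.

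A single test for any difference among the 4 groups, fitted over all 20 libraries, gave an unadjusted p in edgeR of 0.659 for *Otop1*, 0.563 for *Nox3*, 0.928 for *Noxo1* and 0.769 for *Cyba*. The adjusted p was 0.999922 for each, and 0.141% of 14870 genes were called. At an unadjusted p of 0.05, which passes 1727, 1908, 1696 and 1941 genes in the 4 pairwise comparisons, none of the 4 genes passed either.

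**Figure D3:**
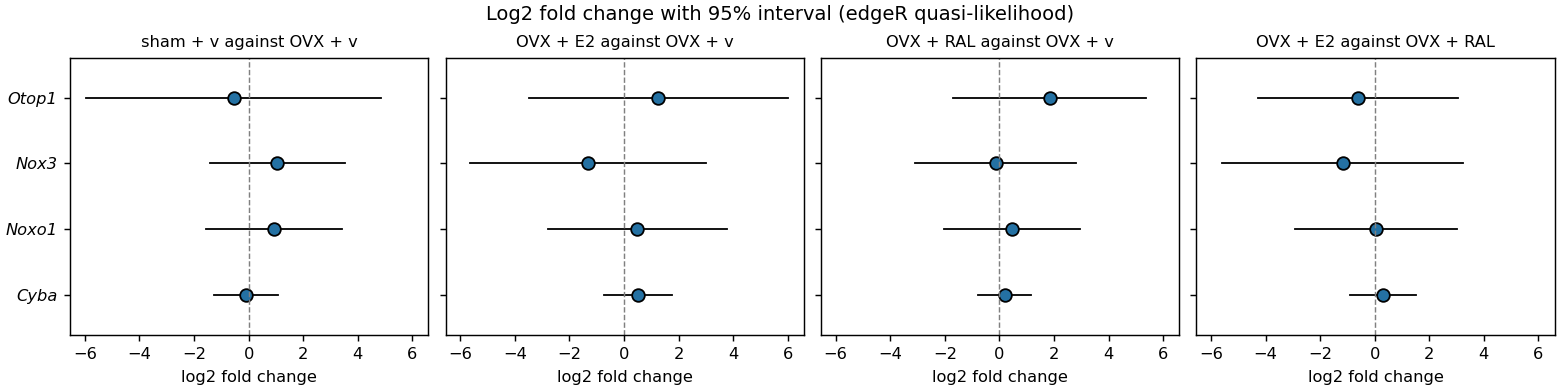
Log2 fold change (horizontal axis) of the 4 genes in the 4 pairwise comparisons, with bars for the 95% interval of the edgeR quasi-likelihood fit. Every interval crosses 0, and those of *Cyba* are the narrowest, as from -0.78 to 1.16 in OVX + RAL against OVX + v.

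The permutation tests of log2(CPM + 1) made no call either. Of 16 tests (4 genes in 4 comparisons, over every grouping of 5 and 5 libraries, two-sided), the lowest exact p was 0.238, for *Nox3* in OVX + E2 against OVX + RAL, with a difference of -1.90. The smallest p these groups allow is 0.00794, and all 16 adjusted values were 0.976. In 0 of the 16 did the CPM of the groups not overlap. Over all genes tested, groups did not overlap in 0.499% for sham + v against OVX + v, 0.832% for OVX + E2 against OVX + v, 0.578% for OVX + RAL against OVX + v and 0.909% for OVX + E2 against OVX + RAL.

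The 4 genes were detected in different numbers of libraries. All were detected together in 7 libraries (4, 5, 6, 8, 18, 19 and 20), 3 of them in 5 libraries, 2 in 7 libraries and only *Cyba* in library 2. *Otop1* and *Nox3* were detected together in 8 libraries, *Otop1* alone of the pair in 2, *Nox3* alone in 3 and neither in 7. *Nox3* was detected without its organizer *Noxo1* only in library 15, while *Noxo1* was detected without *Nox3* in 7 libraries. Over the 20 libraries, Spearman's rho of the CPM was 0.49 for *Otop1* with *Nox3* and -0.60 for *Noxo1* with *Cyba*, the highest and lowest of the 6 pairs. In the OVX + E2 group the libraries with the highest *Noxo1*, 11 and 12, were those with the lowest *Cyba*, and libraries 14 and 15, with *Noxo1* at 0, held 189 and 141 CPM of *Cyba*. Library 13 did not follow this, with 34.5 CPM of *Noxo1* beside the highest *Cyba* of the series, 245 CPM. These are descriptions over libraries that share depth and tissue makeup, with many counts of 0, and no test was run on them.

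The genes whose level followed each of the 4 most closely were taken by Spearman's rho over the 20 libraries, among 6672 or 6673 genes detected in at least 15 libraries. For *Otop1* the nearest was *Gas6*, the secreted ligand of the TAM receptor kinases, with rho = 0.84 (Pearson's r of log2 values 0.80), followed by *Mob1a*, *Fndc3b*, *E2f5* and *Prmt5* (0.81 to 0.71). For *Nox3* it was *Pofut2*, a protein O-fucosyltransferase, with rho = 0.77 (r = 0.60), followed by *Myl9*, *Lrrc58*, *Ambra1* and *Kank2* (0.76 to 0.70). For *Noxo1* it was *Ttc14*, with rho = 0.81 (r = 0.75), followed by *Ebp*, *Svip*, *Bin3* and *Tor2a* (0.70 to 0.64). For *Cyba* it was *Pmpca*, a subunit of the mitochondrial processing peptidase, with rho = 0.77 (r = 0.76), followed by *Srprb*, *Cst3*, *Emb* and *Fth1* (0.74 to 0.71). These are the highest of all values for the 6672 or 6673 genes over libraries that share depth and tissue makeup, so they are a description and carry no p.

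*Otop1* lies on chromosome 5 (38433316 to 38461552, plus strand, GRCm39), and its canonical transcript in GENCODE has 6 exons. *Nox3* lies on chromosome 17 (3685515 to 3746536, minus strand) with 13 exons, *Noxo1* on chromosome 17 (24915208 to 24919503, plus strand) with 9 exons, and *Cyba* on chromosome 8 (123151515 to 123159669, minus strand) with 6 exons. Since the tags come from the 3′ end, the place of that end matters. The newer GENCODE annotation carries *Nox3* 1051 bases and *Cyba* 1093 bases further downstream than the deposited coordinates, but *Otop1* only 6 bases and *Noxo1* 1 base. Tags in those stretches would not be in the deposited counts of *Nox3* and *Cyba*, and their number was not tested.

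The end of *Noxo1* is shared with a neighbour. Its last 400 transcribed bases all lie within exons of *Tbl3*, a ribosome biogenesis gene on the opposite strand, whose own last 400 bases lie within the span of *Noxo1*, 129 of them in its exons. Reads of the 2 genes can be told apart only by strand. The kit keeps the strand, but the strand setting of the counting is not given in the sources used here, so the counts of *Noxo1* are uncertain in this respect. *Tbl3* itself held 89 counts in all, against 991 of *Noxo1*. It had 30, 7 and 18 counts in libraries 1, 2 and 3, 29 in library 6, 4 in library 9 and 1 in library 19, and 0 in the others. *Noxo1* was at 0 in library 2, where *Tbl3* had 7 counts, and held 95 counts in library 11, where *Tbl3* was at 0. *Nox3* has a like neighbour in *Gm34155*, a long noncoding RNA gene on the opposite strand. The last 400 bases of *Nox3* lie within that gene but have 0 bases in its exons, while 125 of the last 400 bases of *Gm34155* lie in exons of *Nox3*. *Gm34155* was not analysed here, and the counts of *Nox3* carry the same doubt about strand.

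**Figure D4:**
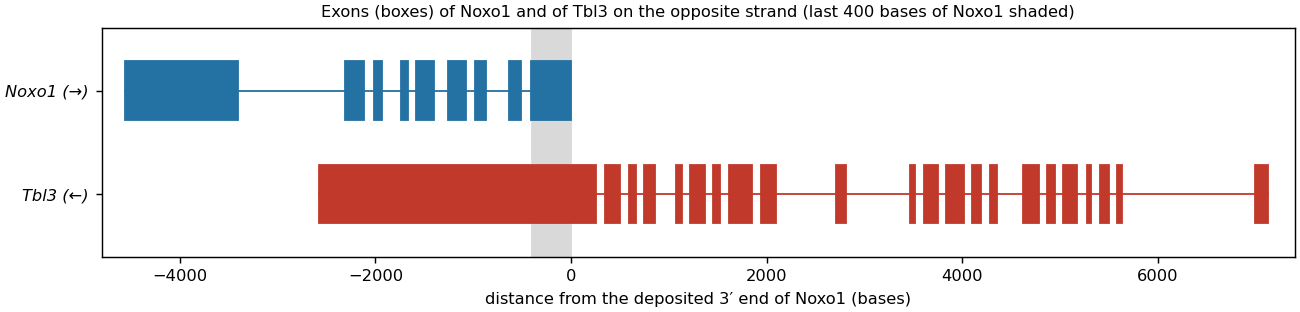
Exons (boxes) of the canonical transcripts of *Noxo1* (blue) and *Tbl3* (red), with arrows for the direction of transcription, against the distance in bases from the deposited 3′ end of *Noxo1*. The last 400 bases of *Noxo1* (grey band) lie wholly within the last exon of *Tbl3*.

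Because the groups differ in estrogen, the 250 bases before the canonical start of *Otop1*, *Nox3* and *Cyba* are shown (GRCm39, 5′ to 3′ on the strand of the gene), with any 5-base arm of the estrogen response element, GGTCA or its complement TGACC, in capitals. The same window of *Noxo1* overlaps annotated exons and is not shown. The *Otop1* window lies inside the span of the gene, which begins at 38433316, because the canonical transcript starts further along. The windows of *Otop1* and *Cyba* differ from the RefSeq windows of these genes, while that of *Nox3* is the same.

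Otop1, chr5:38434262-38434511, plus strand: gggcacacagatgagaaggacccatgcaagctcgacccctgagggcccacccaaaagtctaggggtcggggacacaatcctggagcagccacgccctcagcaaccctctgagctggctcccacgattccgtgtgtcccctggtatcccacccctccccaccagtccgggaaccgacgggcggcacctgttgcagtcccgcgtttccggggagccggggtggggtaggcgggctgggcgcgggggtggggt

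Nox3, chr17:3746537-3746786, minus strand: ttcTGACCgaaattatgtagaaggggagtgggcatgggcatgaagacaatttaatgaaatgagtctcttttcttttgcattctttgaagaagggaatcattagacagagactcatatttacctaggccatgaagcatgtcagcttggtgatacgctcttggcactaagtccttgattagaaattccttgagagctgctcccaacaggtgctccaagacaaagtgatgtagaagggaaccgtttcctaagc

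Cyba, chr8:123159707-123159956, minus strand: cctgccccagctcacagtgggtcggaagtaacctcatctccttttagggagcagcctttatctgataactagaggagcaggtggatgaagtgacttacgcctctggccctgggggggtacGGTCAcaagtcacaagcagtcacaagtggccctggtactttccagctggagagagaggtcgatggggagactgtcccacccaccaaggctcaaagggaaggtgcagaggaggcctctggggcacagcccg

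The *Nox3* window holds 1 arm, starting 247 bases before the start, the *Cyba* window 1 arm, starting 130 bases before it, and the *Otop1* window 0. None holds the full palindrome GGTCANNNTGACC. Of 32536 RefSeq promoter windows of the same length (GRCm38.p6), 35.3% hold at least 1 arm on either strand and 0.0645% the full palindrome, so 1 arm is common. The G and C content is 68.4% for *Otop1*, 42.8% for *Nox3* and 58.4% for *Cyba*, against a median of 52.4% of these windows. A match of letters is no binding site, and its absence from 250 bases says nothing of the receptor.

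*Nox3* is one of several oxidases, and the rest of the family was mostly scarce. Of 16 other subunit genes, 11 had a count, 3 were detected in at least 15 libraries, and *Duox1*, *Duox2*, *Duoxa1*, *Duoxa2* and *Noxa1*, the usual activator partner of *Noxo1*, had 0 counts in all 20. These 3 were *Rac1*, the small GTPase that activates several oxidases, *Rap1a*, a GTPase that copurifies with the phagocyte enzyme, and *Cybc1*, a chaperone of the phagocyte cytochrome. *Rac1* was at 186 ± 26.9 CPM in sham + v, 238 ± 54.7 in OVX + v, 249 ± 46.0 in OVX + E2 and 197 ± 22.3 in OVX + RAL (SD, n = 5). *Rap1a* was at 27.8 ± 20.1, 53.7 ± 34.8, 75.9 ± 26.5 and 31.8 ± 26.6 CPM, and *Cybc1* at 38.62 ± 28.03, 21.6 ± 18.7, 28.2 ± 33.6 and 20.1 ± 13.5 CPM, in the same order of groups. Of 10, 8, 7 and 8 genes of this list tested in the 4 comparisons, 0 were called, where the share over all genes was 0.0145%, 0.0584%, 0.0286% and 0.0727%.

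*Nox4*, *Ncf1* and *Ncf4* had counts in 1 sham + v library each (20, 34 and 37 counts) and none elsewhere. They entered the test only through that library, so no median over the list is given. Among the scarce subunits, *Nox1*, the oxidase of the colon epithelium, held 206 counts in 11 libraries.

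p22phox also serves the phagocyte oxidase, so *Cyba* can come from white cells in the tissue as well as from the epithelium. *Cybb*, the catalytic subunit of that oxidase, held 126 counts, in 8 libraries. The summed level of 12 macrophage markers ranged from 87.8 to 529 CPM in sham + v, 206 to 403 in OVX + v, 96.2 to 464 in OVX + E2 and 160 to 390 in OVX + RAL. That of 12 neutrophil and marrow markers ranged from 0 to 155, 0 to 220, 0 to 21.7 and 0 to 62.8 CPM, with *Mpo* and *Elane* at 0 in every library. In the order of the comparisons, 12, 12, 12 and 11 of the macrophage genes and 8, 7, 7 and 5 of the neutrophil genes were tested, and 0 were called, where the share over all genes was 0.0145%, 0.0584%, 0.0286% and 0.0727%. Their part in the values of *Cyba* was not tested. In whole utricles, fewer cells of a type and less RNA per cell cannot be told apart.

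Of 12 genes of the otoconial matrix and the membranes over the hair cells, 11 were detected in at least 15 libraries. The exception was *Oc90*, otoconin 90, the main matrix protein of mammalian otoconia, with 173 counts in 8 libraries. *Otog*, otogelin of the acellular membranes, had a mean of 2508 CPM, *Sparcl1*, an otoconial matrix protein, 1726 CPM and *Sparc* 1502 CPM. *Otol1*, the collagen-like otolin 1 of the otoconia, was at 187 ± 71.9 CPM in sham + v, 112 ± 79.4 in OVX + v, 168 ± 67.4 in OVX + E2 and 162 ± 76.0 in OVX + RAL (SD, n = 5). *Otol1* thus had its lowest mean in OVX + v, where its values of 29.3 to 232 CPM overlapped those of each other group.

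All 12 otoconial and otolithic membrane genes were tested in each comparison and 0 were called, beside the same shares over all genes. The median log2 fold change against OVX + v was 0.05 for sham + v (7 higher, 5 lower), -0.08 for OVX + E2 (5 higher, 7 lower) and 0.08 for OVX + RAL (7 higher, 5 lower). It was -0.09 for OVX + E2 against OVX + RAL (5 higher, 7 lower). In 1 case the groups did not overlap: *Atp2b2*, the calcium pump of the hair bundle, was at 84.4 ± 25.6 CPM in OVX + RAL and 151 ± 23.6 CPM in OVX + v, with a log2 fold change of -0.84 ± 0.443 and an adjusted p in edgeR of 0.459. *Atp2b2* was at 73.4 ± 52.9 CPM in OVX + E2 and 180 ± 58.5 CPM in sham + v, and its log2 fold change in OVX + E2 against OVX + v was -1.04 ± 0.623 (adjusted p in edgeR 0.565). Over all genes tested, groups did not overlap in 0.578% in OVX + RAL against OVX + v. Of the 9 hair cell markers, 7 were lower and 2 higher in that comparison, beside 7243 lower and 6759 higher over all genes tested. In sham + v and in OVX + E2, each against OVX + v, 6 markers were higher and 3 lower. *Atoh1* had counts in 1 OVX + v library only, so its direction against that group was fixed by the filter. In each of the 4 comparisons 0 hair cell markers were called, beside the same shares over all genes.

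**Figure D5:**
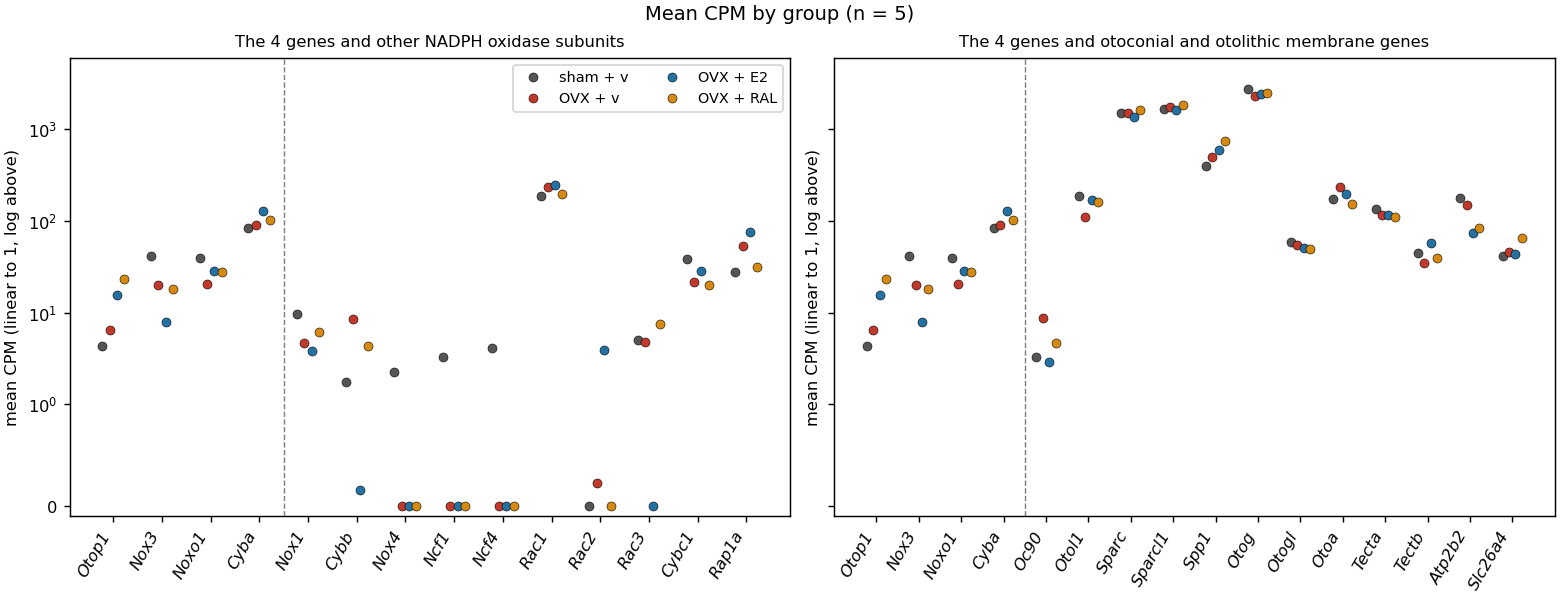
Mean CPM (vertical axis, linear to 1 and logarithmic above) by group (colours, n = 5) of *Otop1*, *Nox3*, *Noxo1* and *Cyba*, left of the dashed lines, beside 10 of the other NADPH oxidase subunits with a count (left panel) and the otoconial and otolithic membrane genes (right panel). *Cyba* lies below *Rac1* in each group, and most matrix and membrane genes lie above *Otop1*, *Nox3* and *Noxo1*.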

How the data were processed

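RNA of the utricle was measured in 20 libraries, grouped by the treatment in the labels. The authors trimmed adaptors, poly(A), low-quality ends and the first bases of the reads, mapped them to GRCm39 (annotation release 105) with default settings and counted them per gene in CLC Genomics Workbench; the version is not given in the sources used here. The deposited total counts, raw and per gene, were used. The deposited CPM, TPM and RPKM columns, and the authors' comparisons (log2 fold changes and p-values), were not used. In all 10 columns that repeat them, the OVX + v counts were identical, and no 2 libraries of the same group had identical counts.

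CPM uses the column total. Each comparison was a fit of its 10 libraries by the quasi-likelihood test of edgeR 4.0.16 in R 4.3.3, with the total as library size and no TMM factor, over all genes with at least 10 counts summed, and with Benjamini-Hochberg adjustment at 0.05. The study tested each group against OVX + v in other software. SEs are the absolute log2 fold change over the root of F, and 95% intervals use the degrees of freedom of the fit. CPM of single genes was compared by exact two-sided permutation tests of log2(CPM + 1) with scipy 1.17.1. The genes named as alike are the 5 with the highest rho for each. Alternatives were TMM factors, DESeq2 1.42.0, other filters, limma 3.58.1, a robust fit, 1 fit of all groups, another pseudocount and each library left out. The code was tested on simulated counts.

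The genes and lists were chosen with earlier results of these data known. The values of 1 gene of the lists are not reported here. The labels do not say that libraries come from separate animals, or give a batch, so p-values measure the spread between libraries, which may be in part technical. The floor of 3 counts covers counting error only, and reads were not collapsed to molecules. The SEs, 95% intervals and p-values of edgeR come from the fit. For *Otop1*, *Nox3*, *Noxo1* and *Cyba* its dispersion, the measure of spread between libraries, equalled or lay near the trend over genes of like level. These intervals and p-values thus reflect the spread of such genes more than that of the gene itself. The annotation is GENCODE vM39, which is newer than the authors'.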

Additional observations from a re-analysis of the deposited data

Results flagged for a closer look

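Of 16 groups of 5 values (4 genes in 4 groups), 4 held a library that stood far from the other 4 by Dixon's criterion (chance flags about 1 in 20 groups of normal values). These values are skewed and hold many at 0, so that rate need not apply and no excess is read from the count. *Otop1* stood at 81.8 CPM in OVX + RAL library 19, above 0 to 15.9 CPM in the others. *Nox3* stood at 36.5 CPM in OVX + E2 library 15, above 0 to 3.02 CPM. *Noxo1* stood at 56.7 CPM in OVX + v library 8, above 5.65 to 20.2 CPM. *Cyba* stood at 134 CPM in OVX + RAL library 17, above 85.2 to 99.0 CPM. The 4 values lie in 4 different libraries. Without library 19 the log2 fold change of *Otop1* in OVX + RAL against OVX + v was 0.45 in place of 1.85. Without library 15 that of *Nox3* was -4.57 in place of -1.32 in OVX + E2 against OVX + v, and -4.43 in place of -1.18 against OVX + RAL.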

How the results depend on the processing

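None of the 4 genes was called under any alternative in which it was tested. With filterByExpr, *Otop1* in sham + v and OVX + E2 against OVX + v, and *Nox3* in OVX + E2 against OVX + v and against OVX + RAL, fell below the filter and were not tested. The smallest adjusted p was 0.575 over 268 alternatives of the pairwise fold changes and 0.450 over 104 of the test for any difference, and the smallest exact p was 0.0794 over 192 alternatives of the permutation tests. Directions of these uncalled values did change, as given here; the cause was not tested beyond the alternatives themselves. With limma on log2(CPM + 1) the log2 difference was -0.27 for *Nox3* in sham + v and 0.21 in OVX + RAL, and -0.62 for *Noxo1* in OVX + E2, each against OVX + v. In OVX + E2 against OVX + RAL it was -0.70 for *Noxo1* and -0.13 for *Cyba* with limma, and for *Noxo1* -0.17 with TMM factors and -0.031 with DESeq2. In the permutation tests *Noxo1* in sham + v against OVX + v was at -0.31 with a pseudocount of 0.1, and *Cyba* in OVX + E2 against OVX + v at -0.062 on TMM library sizes.

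The number of genes called over the whole table, 2 for sham + v against OVX + v, was 1 with TMM factors, 1 with DESeq2, 0 with filterByExpr, 4 with limma and 0 with the robust fit. For OVX + E2 against OVX + v, with 8 calls, it was 34 with DESeq2, 1 with filterByExpr and 4 with the robust fit. For OVX + RAL against OVX + v, with 4, it was 0 with filterByExpr and 0 with the robust fit. For OVX + E2 against OVX + RAL, with 10, it was 39 with DESeq2, 0 with filterByExpr, 6 with the robust fit and 16 in 1 fit of all groups. For any difference, with 21, it was 2 with DESeq2, 1 with filterByExpr, 0 with limma and 5 with the robust fit. With a library left out the calls ranged from 1 to 10 in sham + v (10 without library 1, 1 without 2, 7 or 10), 6 to 17 in OVX + E2 (17 without 11) and 3 to 11 in OVX + RAL (11 without 16, 9 without 20, 8 without 18 or 7), each against OVX + v. They ranged from 8 to 16 in OVX + E2 against OVX + RAL (16 without 11) and 17 to 28 for any difference.

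With a library left out (the library of each bound in parentheses), the log2 fold change in sham + v against OVX + v ranged from -1.78 (4) to 0.71 (8) for *Otop1*, 0.057 (4) to 1.50 (8) for *Nox3*, 0.27 (4) to 1.79 (8) for *Noxo1* and -0.31 (3) to 0.025 (1) for *Cyba*. In OVX + E2 against OVX + v it ranged from -0.28 (14) to 2.51 (8), -4.57 (15) to -0.87 (8), -0.029 (11) to 1.34 (8) and 0.13 (13) to 0.76 (11) for the same genes. In OVX + RAL against OVX + v it ranged from 0.45 (19) to 3.11 (8), -0.60 (19) to 0.30 (8), -0.32 (16) to 1.30 (8) and 0.076 (17) to 0.25 (18). In OVX + E2 against OVX + RAL it ranged from -2.14 (14) to 0.80 (19), -4.43 (15) to -0.71 (19), -0.48 (11) to 0.81 (16) and -0.059 (13) to 0.57 (11). In the permutation tests the difference of log2(CPM + 1) ranged from -0.48 to 0.29 for *Cyba*, -1.36 to 0.14 for *Noxo1* in OVX + E2 against OVX + RAL. In these tests it ranged from -0.29 to 0.47 for *Cyba*, -1.29 to 0.21 for *Noxo1*, -0.49 to 1.18 for *Otop1* in OVX + E2 against OVX + v. In these tests it ranged from -0.58 to 1.04 for *Nox3*, -0.48 to 0.59 for *Noxo1* in OVX + RAL against OVX + v. In these tests it ranged from -1.29 to 0.45 for *Nox3*, -0.32 to 1.34 for *Noxo1*, -0.84 to 0.52 for *Otop1* in sham + v against OVX + v.

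The rho of *Mob1a* with *Otop1* was 0.78 with TMM-scaled CPM, and that with *Nox3* 0.73 for *Pofut2*, 0.70 for *Lrrc58* and 0.67 for *Kank2*. No paired analysis was possible because the labels give no link between libraries of different groups. At 1123053 to 2081747 counts a library, the width of the intervals of *Otop1*, *Nox3* and *Noxo1* limits what could be seen.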
